A study of Mus musculus with 10 samples.

Results

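A set of 8 genes encoding liver transcription factors was followed through ATAC-seq peak lists of mouse liver tumours. The genes were Hnf4a, Foxa1, Foxa2, Foxa3, Onecut1, Onecut2, Prox1 and Nfib, out of 21631 protein-coding genes on the autosomes and X in the RefSeq table. They were chosen by name, and every deposited peak that overlapped one of them or lay within 10 kb of either end was taken. ATAC-seq tags open DNA with a transposase, and a peak is a stretch where tags pile up above the local background.

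The 10 libraries came from frozen liver tumours of FVB mice, collected at death after doxycycline was withdrawn. All of them carried LAP-tta, an activator under a liver promoter taken from Cebpb, and TRE-MYC, the MYC transgene it switches on. WT tumours (n = 4, about 55 days old) had Arid1aflfl without Cre. Het tumours (n = 3, about 70 days old) had Arid1afl/+ with Alb-cre, and Homo tumours (n = 3, about 100 days old) had Arid1afl/fl with Alb-cre, so that Cre acts where the albumin promoter is active. Arid1a encodes a subunit of the SWI/SNF chromatin remodelling complex. The comparisons ask how open chromatin at these liver factor genes differed with Arid1a genotype. Genotype, Cre and age change together in these groups and cannot be told apart. Nothing in the labels says that replicates came from separate mice, so each p-value speaks of library-to-library spread, which may be technical. In bulk tissue, fewer cells of a type and less open DNA per cell cannot be told apart.

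Hepatocyte identity is held by a network of factors that bind one another's control regions. HNF4A is a nuclear receptor that maintains the hepatocyte programme, and its gene starts at P1, used in adult liver, and at P2, further upstream, used in pancreas and in early liver. FOXA1, FOXA2 and FOXA3 are forkhead factors that can bind DNA in compact chromatin. ONECUT1 (HNF6) and ONECUT2 act in liver and bile duct development, PROX1 in the outgrowth of the liver bud, and NFIB belongs to the nuclear factor I family.

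The sequences just before 4 start sites are shown because peaks overlapped 3 of these windows and the one before the P2 start of Hnf4a was without a peak. Each line gives the 250 bases before the start, 5′ to 3′ on the gene's strand, from RefSeq (build GRCm38.p6, numbered as mm10). Capitals mark matches to the motifs searched on both strands, which were CAAAGTCCA (HNF4), TGTTTAC and TGTTTGC (FOXA), ATCGAT and ATCAAT (ONECUT), TTGGCA (NFI), CACGTG (E-box, the site class bound by MYC) and TTGCGCAA (C/EBP).
Hnf4a P1, chr2:163546905-163547154, plus strand: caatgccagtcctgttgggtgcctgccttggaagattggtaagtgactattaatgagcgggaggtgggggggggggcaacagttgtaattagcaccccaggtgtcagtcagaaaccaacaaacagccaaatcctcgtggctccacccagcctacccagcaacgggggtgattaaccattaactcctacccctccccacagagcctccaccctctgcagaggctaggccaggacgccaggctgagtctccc
Hnf4a P2, chr2:163506607-163506856, plus strand: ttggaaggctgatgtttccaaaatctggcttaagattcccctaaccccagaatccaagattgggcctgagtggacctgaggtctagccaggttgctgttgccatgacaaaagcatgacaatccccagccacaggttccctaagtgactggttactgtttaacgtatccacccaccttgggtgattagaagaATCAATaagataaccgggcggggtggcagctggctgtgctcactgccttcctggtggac
Foxa3, chr7:19023540-19023789, minus strand: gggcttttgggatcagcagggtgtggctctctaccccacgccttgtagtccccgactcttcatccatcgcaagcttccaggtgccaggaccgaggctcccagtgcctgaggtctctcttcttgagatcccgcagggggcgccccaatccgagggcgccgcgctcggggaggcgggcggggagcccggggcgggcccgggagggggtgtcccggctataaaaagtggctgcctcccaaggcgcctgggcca
Onecut1, chr9:74861671-74861920, plus strand: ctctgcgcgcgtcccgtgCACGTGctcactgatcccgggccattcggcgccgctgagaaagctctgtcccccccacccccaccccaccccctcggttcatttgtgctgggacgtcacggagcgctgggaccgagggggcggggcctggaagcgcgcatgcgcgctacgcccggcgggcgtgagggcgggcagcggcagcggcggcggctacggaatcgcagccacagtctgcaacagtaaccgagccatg

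The peaks called at P1 in WT 4 and Homo 3 covered up to 126 of the 250 bases printed for P1. In the P2 window the ONECUT letters ATCAAT stood 59 bases before the start, a motif found in 6.72% of the 32851 promoter windows of the same length, and no library had a peak there. An E-box in the Onecut1 window began 232 bases before the start, inside a peak of Homo 3, and 6.02% of windows hold one. None of these 8 motifs was found in the P1 window or the Foxa3 window. The matches named describe letters only, and no 2 of them overlapped. Other motifs, such as that of the liver factor HNF1, are not reported here, so neither window can be said to lack them. Promoter windows were matched for 6 of the 8 genes.

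Peaks near the 8 genes were mostly weak within their own lists. Across all libraries 38 peaks fell into 11 distinct regions at 5 genes, with 3 regions at Nfib, 3 at Foxa3, 2 at Hnf4a, 2 at Onecut1 and 1 at Prox1. No peak lay within 10 kb of Foxa1, Foxa2 or Onecut2 in any library. Thus 62.5% of the 8 genes had a region in at least 1 library, near the 55.5% of all protein-coding genes. Counts were not scaled by length, and the windows searched ran from 24093 bp at Foxa2 to 236579 bp at Nfib. The fold was the authors' ratio of tags at the summit over the local background, with 1 added to both. The added 1 lowers the ratio most where the background is low, as in shallow lists. Folds ran from 3.94 to 9.28 with a median of 6.08. Each peak was also placed by its percentile within its own list, ranked by the authors' −log10 p, where 100 is the strongest. The 38 percentiles ran from 0.816 to 86.9 with a median of 31.6, and 25 were below 50. None of the 11 regions was called in all 10 libraries, against 5.27% of the 12266 regions of the whole series. Of the 11, 2 were called in a single library (18.2%), and 19.0% of all regions were.

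**Figure D1:**
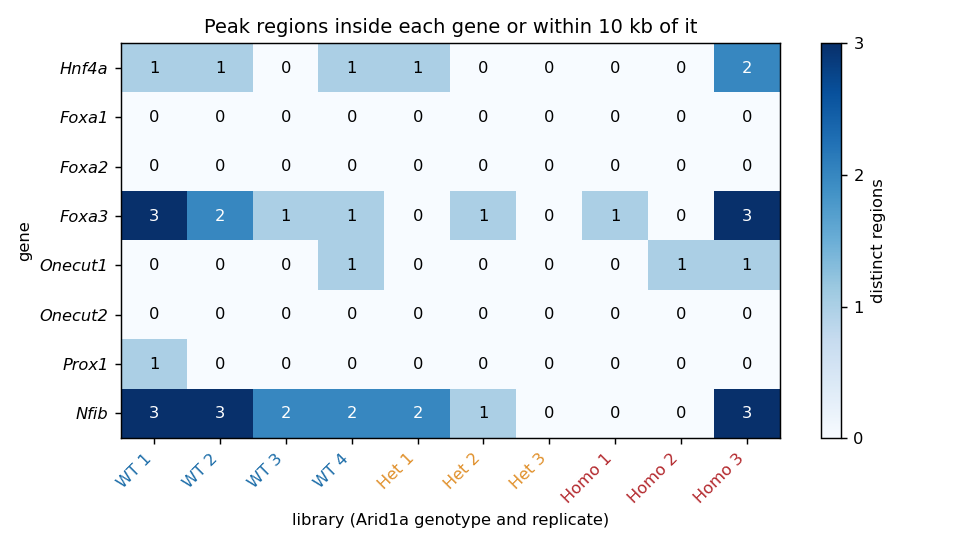
Number of distinct peak regions (colour and digits) inside each gene or within 10 kb of it, by library on the x axis and gene on the y axis. Counts reach 3 at Nfib and Foxa3, and the rows of Foxa1, Foxa2 and Onecut2 are 0 in all 10 libraries.

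The lists differed in length and in depth. They held between 1763 peaks (Homo 2) and 9618 (Homo 3), with 6759 to 9564 in WT and 2598 to 5817 in Het. The background, in tags per 200 bp and recovered from the deposited values, lay between 0.464 in Homo 2 and 1.75 in WT 1. Length did not always follow this measure of depth. Het 3 had 2598 peaks at a background of 0.738, and Het 1 had 5817 at 0.696. After lists were thinned to the depth of the shallowest library, they still held from 1748 peaks in Homo 2 to 5814 in WT 2. Homo 3 stood apart from Homo 1 and Homo 2 by its depth and length, so differences that rest on it are also given without it. Among markers of other cell types, 0 of 5 endothelial and 0 of 5 stellate and fibroblast genes had a region within 10 kb in any library. Of the 6 cholangiocyte markers Epcam had one, in WT 3 and WT 4. Of 13 macrophage, lymphocyte and erythroid markers Cd68 and Klf1 had at least 1 in 10 libraries, Cd79a in 8 and Spi1 in Homo 3. The rest of these markers had none. A region within 10 kb may belong to another gene, so these counts identify no cell type. Hepatocyte markers with a region numbered 1 to 6 of 7 in WT, 1 to 2 in Het and 0 to 5 in Homo, with Hnf4a itself among the 7 markers. Their part in the results was not tested. Arid1a itself had 2 regions within 10 kb in 8 libraries, 1 in Het 2 and 0 in Homo 2. The labels do not place the floxed part, so this checks no deletion.

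Hnf4a (chromosome 2, 163506811 to 163572907, plus strand) had 2 regions, both inside the gene. The first lay at chr2:163540672-163540976, with its median summit at -6335 bp from P1 (upstream), in a stretch that the noncoding RNA gene Hnf4aos also covers. It was called in WT 1, WT 2, Het 1 and Homo 3. Its fold was 5.53 in WT 1 and 6.0 in WT 2, 8.0 in Het 1 and 5.13 in Homo 3. The 4 summits lay within 27 bp of each other. Het 1 gave the strongest of these peaks relative to its own list, at percentile 72.8, while the other libraries gave 18.7 to 33.1. An enhancer several kilobases upstream of P1 is known as background, and whether this region is the same element was not tested.

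The second Hnf4a region, chr2:163547029-163547292, covered the P1 start. It was called in WT 4, with a fold of 6.64 at percentile 46.4, and in Homo 3, with a fold of 6.55 at percentile 40.5. The 2 summits were 13 bp apart. In the other 8 libraries no peak was called at P1, and the peak nearest to the P2 start in any library was 33815 bp away. Homo 3 was the library that held both regions. WT 4 had P1 alone, and WT 1, WT 2 and Het 1 had the upstream region alone.

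No region of Hnf4a was called in WT 3, Het 2, Het 3, Homo 1 or Homo 2. WT 3 also had the shortest WT list and 2 of 23 HNF4A and FOXA target genes with a region, against 8 to 12 in the other WT libraries. WT libraries averaged 0.75 ± 0.5 Hnf4a regions (SD, n = 4), Het libraries 0.333 ± 0.577 (n = 3) and Homo libraries 0.667 ± 1.15 (n = 3). These groups overlapped. Homo minus WT was -0.08 regions (exact permutation p = 1), and the difference became 0.25 without Homo 1 or without Homo 2 and -0.75 without Homo 3. Het minus WT was -0.42 (exact permutation p = 0.486, Benjamini-Hochberg adjusted p = 0.739 over all genes tested), and -0.75 without Het 1.

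**Figure D2:**
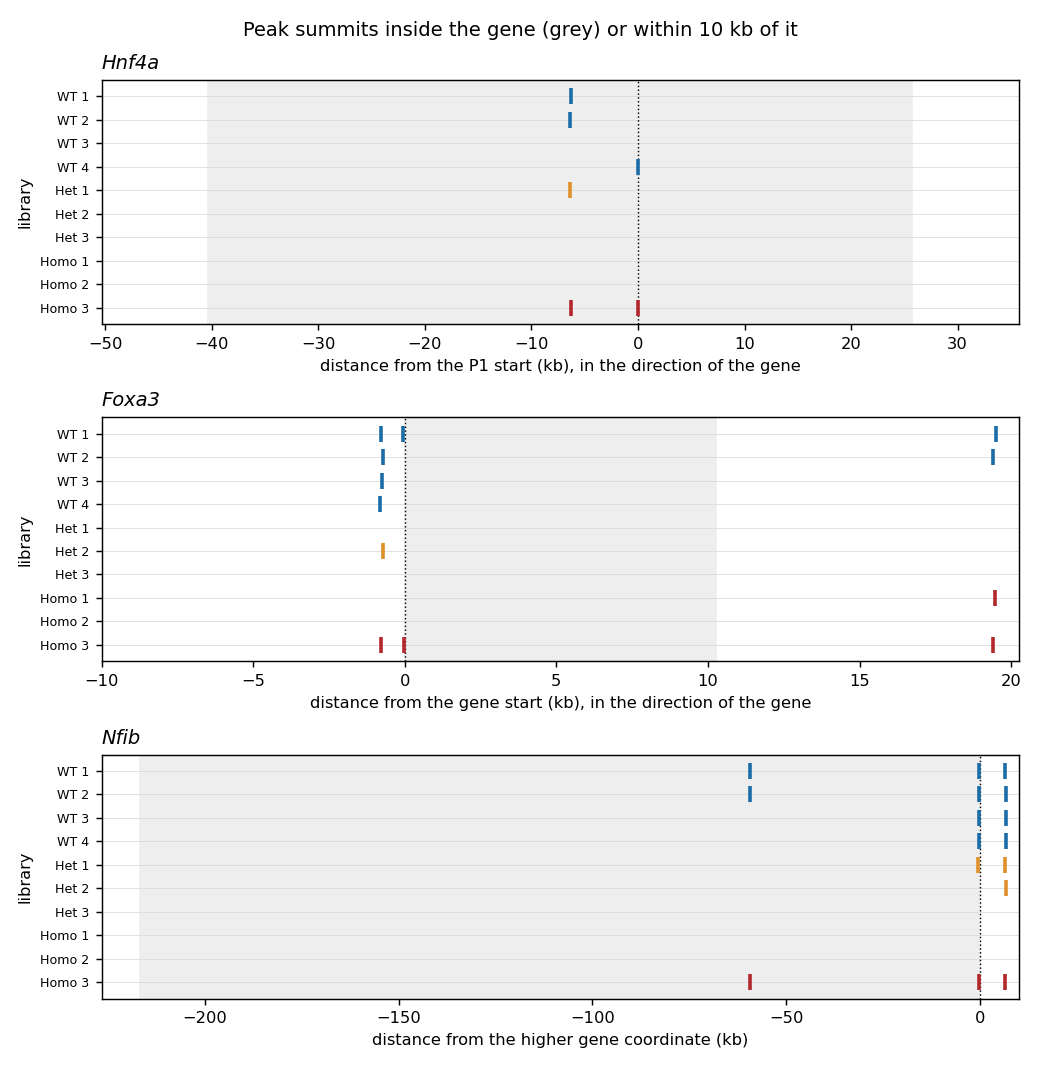
Position of each peak summit (1 tick a peak) along Hnf4a, Foxa3 and Nfib, with 1 line for each library and the gene in grey. The x axes give kb from P1 (Hnf4a), the gene start (Foxa3) or the higher gene coordinate (Nfib). At Hnf4a the ticks fall at the P1 start and at about -6335 bp. At Nfib they stack at the higher gene coordinate and outside it, with others inside the gene in WT 1, WT 2 and Homo 3.

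The 3 FOXA genes differed in what was called near them. Foxa1 (chromosome 12, 57540628 to 57548029) and Foxa2 (chromosome 2, 148042877 to 148046969) are minus-strand genes with no peak within 10 kb, and the nearest peak of any library lay 95910 bp from Foxa1 and 73907 bp from Foxa2. Foxa3 (chromosome 7, 19013283 to 19023539, minus strand) had 3 regions, and 2 of them lay at the starts of neighbouring genes. A missing call shows only that the tags did not pass the threshold in that library.

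At the Foxa3 start itself, the region chr7:19023511-19023764 was called in WT 1 and Homo 3. The fold was 4.87 in WT 1, at percentile 12.5, and 3.94 in Homo 3, at percentile 0.816, the lowest percentile of the 38 peaks. These peaks covered up to 225 of the 250 bases printed for Foxa3. With lists thinned to the depth of the shallowest library, WT 1 kept this peak and Homo 3 did not.

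The most frequent Foxa3 region, chr7:19024069-19024449, lay 530 bp outside the gene. It overlapped Sympk, which encodes a scaffold of the mRNA 3′ end processing machinery, and its median summit was at -767 bp from the Foxa3 start (upstream) but 71 bp from the Sympk start. It was called in all 4 WT libraries, with folds of 6.78, 5.67, 6.16 and 4.90 from WT 1 to WT 4, in Het 2 with 5.71 and in Homo 3 with 8.50. Homo 3 had the highest fold and percentile here, 82.8, and the WT percentiles spread from 7.48 to 63.7. The Homo 3 peak was also among the 1748 strongest of its list.

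The other Foxa3 region, chr7:19003970-19004357, was 8926 bp beyond the end of the gene and 39 bp from the start of Irf2bp1, a transcriptional corepressor gene. It was called in WT 1, WT 2, Homo 1 and Homo 3 with folds of 4.6, 4.47, 4.62 and 4.64. The folds lay close together, and their percentiles ran from 3.69 to 22.8. Since 2 of the 3 regions sit at other genes' starts, peaks near Foxa3 cannot be assigned to Foxa3 from position alone. Foxa3 had 3, 2, 1 and 1 regions from WT 1 to WT 4, 1 in Het 2 and 0 in Het 1 and Het 3, and 1, 0 and 3 from Homo 1 to Homo 3. Thus WT averaged 1.75 ± 0.957 regions (n = 4), Het 0.333 ± 0.577 (n = 3) and Homo 1.33 ± 1.53 (n = 3), and the counts of all 3 groups overlapped. Het minus WT was -1.42 (exact permutation p = 0.171, adjusted p = 0.574). Homo minus WT was -0.42 (exact permutation p = 0.771, adjusted p = 1), became 0.25 without Homo 2 and was -1.25 without Homo 3.

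The ONECUT genes had peaks in 3 libraries between them. Onecut2 (chromosome 18, 64340032 to 64398488) had none, and the nearest peak was 90379 bp away. Onecut1 (chromosome 9, 74861921 to 74889648, plus strand) had a region just before its start, chr9:74861611-74861815, in Homo 3 alone. Its fold was 5.15 at percentile 19.0, and its summit lay at -231 bp from the start, inside the E-box shown in capitals. This peak also lies in Gm33562, a noncoding RNA gene. The second region, chr9:74896825-74897118, was 7177 bp past the end of the gene and overlapped no gene of the table. It was called in WT 4 with a fold of 6.25 and in Homo 2 with a fold of 5.56, and the summits were 32 bp apart. Homo 2 had the shallowest list, and this was its 1 peak near any of the 8 genes, ranked 1407 of 1763.

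Onecut1 was the gene of the 8 with the higher mean in Homo than in WT, 0.667 ± 0.577 regions over the Homo libraries (n = 3) against 0.25 ± 0.5 over WT (n = 4) and 0 over Het (n = 3). The peaks behind this came from different regions in Homo 2 and Homo 3. Homo minus WT was 0.42 (exact permutation p = 0.486, adjusted p = 0.812). It was 0.25 without Homo 2 or without Homo 3 and 0.75 without Homo 1. Homo minus Het was 0.67 (exact permutation p = 0.4, adjusted p = 1), and 0.5 without Homo 3.

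Prox1 (chromosome 1, 190118035 to 190170827, minus strand) had a single peak, chr1:190129573-190129789, inside the gene in WT 1. Its fold was 6.19 at percentile 25.6. Neither of its 2 annotated starts had a peak in any library. Just outside the limit of 10 kb, a region at 190106752 to 190107384 lay 10651 bp from the gene and was called in WT 1, WT 2, WT 4, Het 1, Het 3 and Homo 1, with folds from 5.07 to 7.26. Just inside the limit were the Foxa3 region at Irf2bp1 and the downstream Onecut1 region. Prox1 would thus have had a region in 6 libraries with a slightly wider window.

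Nfib (chromosome 4, 82290173 to 82506751) carried the most regular peaks of the 8 genes, in the longest window. Per 100 kb of window it had 1.27 regions, against 9.92 at Foxa3. Its 3 regions were one inside the gene, one at its higher coordinate and one beyond that coordinate. The strongest, chr4:82513090-82513623, lay 6339 bp outside the gene in Gm11266, a noncoding RNA gene, and 5309 bp from the start of that gene. It was called in 7 libraries, with folds of 8.33, 5.86, 6.94 and 8.27 from WT 1 to WT 4, 9.28 in Het 1, 7.50 in Het 2 and 8.05 in Homo 3. The summits lay within 111 bp, and its median percentile was 70.6. Het 1 had the highest fold and percentile, 86.9, and WT 2 the lowest percentile, 19.8. This region was kept in all 7 libraries when lists were thinned to equal depth, and none of the other 10 regions was kept in more than 4.

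The region at the higher coordinate of Nfib, chr4:82506039-82506681, was called in all 4 WT libraries, in Het 1 and in Homo 3. Its fold was 5.93, 6.49, 4.91 and 5.08 from WT 1 to WT 4, 5.20 in Het 1 and 6.28 in Homo 3. The WT and Homo 3 summits lay between 82506473 and 82506512, whereas the Het 1 summit was at 82506160. The Het 1 peak ended at 82506238 and overlapped the WT 2 peak, which began at 82506206, but began and ended short of the peaks of WT 1, WT 3, WT 4 and Homo 3. The third region, chr4:82447190-82447629, lay inside the gene and was called in WT 1, WT 2 and Homo 3 with folds of 8.57, 7.08 and 7.63.

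Nfib had 3 regions in WT 1 and WT 2, 2 in WT 3 and WT 4, 2 in Het 1, 1 in Het 2, 0 in Het 3, 0 in Homo 1 and Homo 2, and 3 in Homo 3. Every WT library had at least 2 regions, and the Het and Homo counts overlapped with them through Het 1 and Homo 3. WT averaged 2.5 ± 0.577 regions (n = 4), Het 1 ± 1 (n = 3) and Homo 1 ± 1.73 (n = 3). Het minus WT was -1.5 (exact permutation p = 0.0857, adjusted p = 0.498), the smallest p of the 8 genes. Homo minus WT was -1.5 as well (exact permutation p = 0.171, adjusted p = 0.762), with a Homo spread larger than the difference, and it became -2.5 without Homo 3.

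**Figure D3:**
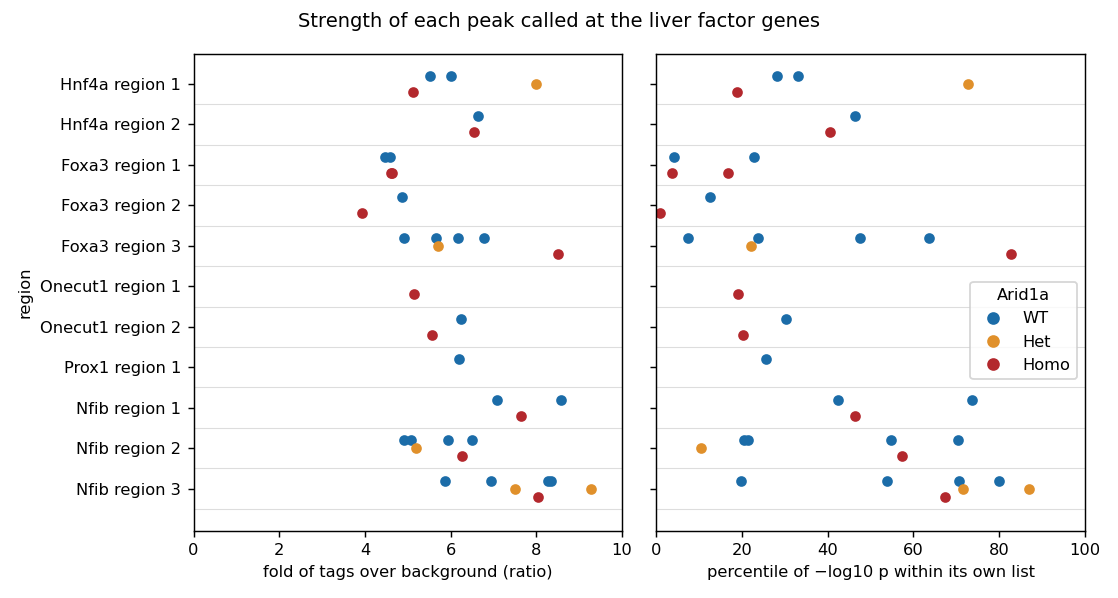
Fold (left) and percentile within its own list (right) of each peak, by region on the y axis and coloured by Arid1a genotype, 1 point for each library that called it. The Nfib region 3 points lie between 5.86 and 9.28 in fold, and the Foxa3 regions 1 and 2 lie below a percentile of 25.

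In Homo against WT, a region within 10 kb was called in every WT and no Homo library at 0 of the 5 genes with a region. Over the 11912 genes with a region in either group, which are the genes tested, the figure was 0.218%, and 0.00839% showed the reverse. The number of regions per gene was compared by exact permutation of the labels, two-sided, with 35 arrangements and a smallest p of 0.0286. None of the 5 genes with a region passed after Benjamini-Hochberg adjustment, and neither did any other gene. The smallest adjusted p of any gene was 0.658. A gene could pass only if a large share of all genes reached the smallest p, so these 0 calls say little. Without adjustment, 0 of the 5 and 0.369% of genes in the direction of fewer regions in Homo had a p under 0.05. By Fisher's exact test of presence the adjusted count was likewise 0. The mean was lower in Homo at 4 of the 5 and higher at 1, where 80.7% of all genes tested were lower and 11.9% higher. The median difference was -0.25 for the 5 genes and -0.33 for all genes. Of the same 5 genes, 2 were called in every WT library, Foxa3 and Nfib, where 60.4% of genes tested were, and 0 in every Homo library, where 13.4% were. Without Homo 3, Nfib would be called in every WT and no Homo library. So would the 888 other genes with the same presence pattern over the 10 libraries. The share of all genes without Homo 3 is not given.

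In Het against WT, 0 of the 5 genes with a region were called in every WT and no Het library, against 4.72% of 11641 genes tested, and 0.00859% showed the reverse. All 5 genes with a region had a lower mean in Het, as did 83.9% of genes tested (4.96% were higher), and the median difference was -0.42 for both sets. The exact permutation test called 0 of the 5 genes and 0 of all genes after adjustment. The smallest adjusted p of any gene was 0.436, and the same limit applied. At an unadjusted p under 0.05 it gave 0 of the 5 and 6.55% of genes with fewer regions in Het. Presence in every WT library was found for 61.8% of the genes tested here and in every Het library for 20.9%, against 2 and 0 of the 5. Foxa3 would be called in every WT and no Het library without Het 2, whose peak near Foxa3 lies at the Sympk start. So would the 105 other genes with the same presence pattern over all libraries. The share of all genes without Het 2 is not given.

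In Homo against Het, 0 of the 4 genes with a region were called in all libraries of one group and none of the other. Presence in every Homo library was seen at 14.3% of genes tested and in every Het library at 21.7%, and at 0 of the 4 in either. Over 11197 genes, 0.411% were called in every Homo and no Het library and 0.0447% in the reverse pattern. With 3 against 3 libraries the exact permutation p cannot fall below 0.1, so no gene can pass 0.05. The mean was higher in Homo at 3 of the 4 genes with a region (Hnf4a, Foxa3 and Onecut1), against 43.6% of genes tested, and equal at Nfib, where 0 became -1 without Homo 3. It was lower in Homo at 25% of genes. Without Homo 3 the Hnf4a difference of 0.33 became -0.33 and that of Foxa3 fell from 1 to 0.17. Without Homo 1, Onecut1 would be called in every Homo and no Het library, and the share of all genes without Homo 1 is not given.

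Per library, the number of the 8 genes with a region within 10 kb was 4, 3, 2 and 4 from WT 1 to WT 4, 2, 2 and 0 from Het 1 to Het 3, and 1, 1 and 4 from Homo 1 to Homo 3. The groups overlapped between Het and Homo, and between WT and both. As a share of the 8 genes, WT libraries averaged 40.6% ± 12.0 (n = 4), Het libraries 16.7% ± 14.4 (n = 3) and Homo libraries 25% ± 21.7 (n = 3). All protein-coding genes gave 44.1% ± 4.15, 26.0% ± 9.49 and 27.6% ± 19.7 in the same libraries. The short lists were low on both shares and the long lists high on both. When lists were thinned to the depth of the shallowest library, the number of the 8 genes with a region averaged 2.5 ± 0.577 for WT (n = 4), 1 ± 1 for Het (n = 3) and 1.33 ± 1.53 for Homo (n = 3). The difference of -1.25 genes between Homo and WT turned to 0.667, and that of -1.92 between Het and WT to 1, when only the 1748 strongest peaks of every list were kept. At the annotated start itself, peaks covered P1 of Hnf4a in 2 libraries and the Foxa3 start in 2, and 38.2% of 21045 protein-coding start sites had a peak over them in at least 1 library.

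**Figure D4:**
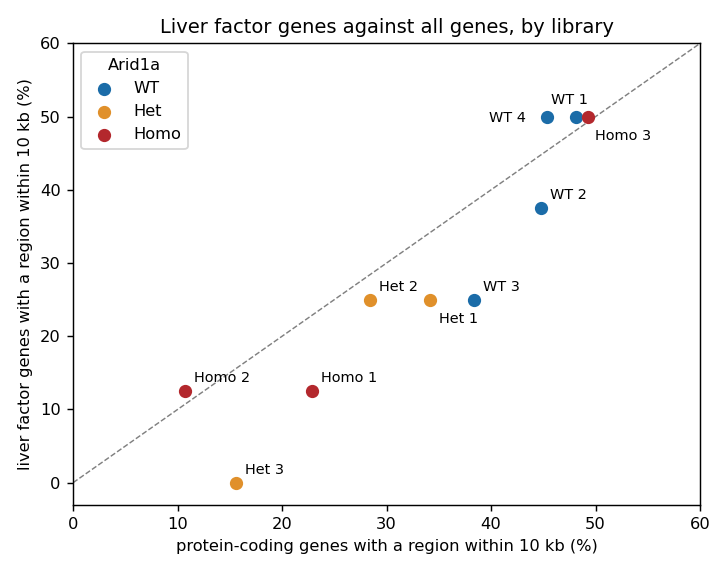
Percent of the 8 liver factor genes with a region within 10 kb (y axis) against the same percent over all protein-coding genes (x axis), 1 point a library, coloured by genotype, with the line of equal percent dashed. Homo 3 sits with WT 1 and WT 4 at 50%, and Het 3 is at 0%.

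Other genes of the network were counted in the same way, with no test of their difference from the 8. Of 25 such genes, 21 had a region within 10 kb in at least 1 library and 10 in all 4 WT libraries, against 5 and 2 of the 8 and against 55.5% and 33.3% of all protein-coding genes. Hhex (liver bud outgrowth), Nr1h3 (the oxysterol receptor LXR alpha) and Zbtb20 (a zinc finger repressor, of Afp among others) had one in all 10 libraries. Cebpa, a hepatocyte differentiation factor, was called in 9 libraries. Among the relatives of Nfib, Nfia was called in 6 libraries, Nfic in 3 and Nfix in 3. Gata6, Nr1i2, Nr2f1 and Tbx3 had none. Per library, network genes with a region averaged 16.5 ± 3.51 for WT (n = 4), 8.67 ± 4.16 for Het (n = 3) and 9 ± 6.08 for Homo (n = 3).

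The presence pattern of Nfib over the 10 libraries (4 WT, Het 1, Het 2 and Homo 3) was identical to that of Creb3l3, Nr1i3 and Ppara in the network list. It was shared by 888 other protein-coding genes in all. The patterns of Hnf4a and Foxa3 were shared by 177 and 105 protein-coding genes and by 0 network genes. Onecut1 had a pattern that 0 other genes showed.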

How the data were processed

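Each library has 1 narrowPeak list. Reads were aligned with Bowtie2 to mm10 and peaks called with MACS2, and deepTools is named too, per the submitters' processing notes. Versions, thresholds, read filters and the transposase shift were not given by those notes or the labels. The deposited columns used are the fold (a ratio), the −log10 p and the −log10 q. The deposited score is about 10 times the −log10 p and was not used further.

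Peaks that overlapped or touched were merged into regions over autosomes and X and placed against RefSeq genes (GRCm38.p6). The table gives no exons, so exon, intron and UTR are not stated. Start sites come from the RefSeq promoter table. A whole-number pileup and a background giving the deposited fold and −log10 p within 0.001 were found for at least 99.88% of each list. The smallest background shared by 10 or more peaks was taken as depth. It was not checked against read totals.

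The comparisons used exact permutation and Fisher's exact tests over all genes with a region in the compared groups, with Benjamini-Hochberg adjustment, in Python 3.11.15 with SciPy 1.17.1. The test was tested on simulated data. The 8 genes and all lists were chosen with earlier results of these data known. All 8 genes are named, other network genes by identical pattern or low count, and single network genes with their roles after their values were seen. Of 24 target symbols 23 were found, and of 8 hepatocyte markers 7. Some listed items are not reported here. Alternatives changed the window, threshold, list length, depth (1 random thinning), overlap, region width and replicates.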

Additional observations from a re-analysis of the deposited data

Results flagged for a closer look

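In 3 cases, counts of regions in the 4 WT libraries had 1 library standing apart from the others. Hnf4a had 0 regions in WT 3 and 1 in each of the others. Onecut1 had 1 region in WT 4 and Prox1 had 1 region in WT 1, with 0 in each of the other 3. A count of 0 or 1 in which 1 library differs is always marked by this comparison of gaps, and 3 of 16 sets of 4 values were marked, where chance marks about 1 in 20 sets of continuous values. The cause was not tested.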

How the results depend on the processing

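The difference between groups in the mean number of the 8 genes with a region within 10 kb was -1.25 for Homo against WT, -1.92 for Het against WT and 0.667 for Homo against Het. With the 1748 strongest peaks of every list these became 0.667, 1 and -0.333, a direction change in each, and 0 of the 8 genes kept a region in any WT library. Taken above the share of all genes they were 0.0735, -0.467 and 0.541. Homo against Het also turned to -0.333 with a window of 50 kb. Leaving out 1 library gave -2.25 to -0.75, -2.33 to -1.25 and -0.333 to 1.17. The count of genes called in all of one group and none of the other, 0 in each comparison, ran from 0 to 1 when 1 library was left out. For Het against WT it was 1 (Foxa3) with −log10 q of at least 5 and 1 (Foxa3) at equal depth. The share of all genes called so is not given for these settings or with 1 library left out. These counts therefore have no comparison. The test of single genes was repeated with 1 library left out, by presence (Fisher's exact test) and with the block, and gave 0 calls each time. This says nothing of stability where the design cannot reach 0.05: the smallest exact permutation p is 0.0667 for 4 against 2 libraries, 0.1 for 3 against 3 and 0.25 for 3 pairs. Of 108 differences of single genes under an alternative, 88 kept their direction, 9 became 0, 2 stayed at 0, 5 moved off 0 and 4 turned. The 5 were at Nfib in Homo against Het, from -1 to 0.5. The 4 that turned were at Hnf4a (-0.75 to 0.25 for Homo against WT and -0.33 to 0.67 for Homo against Het) and Foxa3 (-1.25 to 0.25 for Homo against WT).

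With the replicate number as a replicate block, the mean differences were -1, -1.67 and 0.667 and the calls stayed at 0. WT 4 has no partner and drops out of the block, and leaving out WT 4 alone gave the same -1 and -1.67. Whether the numbers pair the libraries cannot be settled from these lists. Deviations of same-numbered libraries correlated between -0.239 and 0.0369 over 9 pairs, and 2 of 3 Het libraries correlated best with the WT library of their number, 0 of 3 Homo libraries did. At equal depth the differences in the number of genes were -1.17, -1.5 and 0.333, and what depth adds to them was not tested further. Of the 38 peaks, 24 were kept at equal depth and 5 among the strongest 1748.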

Other observations

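Genes that HNF4A and FOXA factors are known to control were counted as well, without a test. Of 23 target genes, 1 of them also in the network list, 13 had a region within 10 kb in at least 1 library. This was 56.5%, near the 55.5% of all protein-coding genes. Apoa2, an apolipoprotein gene, was the 1 with a region in all 4 WT libraries (4.35%, against 33.3% of all protein-coding genes). Target genes with a region numbered 10, 12, 2 and 8 from WT 1 to WT 4, 2, 2 and 0 from Het 1 to Het 3, and 0, 1 and 10 from Homo 1 to Homo 3. As a share of the 23, WT averaged 34.8% ± 18.8 (n = 4), Het 5.80% ± 5.02 (n = 3) and Homo 15.9% ± 23.9 (n = 3). The averages over all protein-coding genes were 44.1%, 26.0% and 27.6%. Ttr, G6pc and Igfbp1 (transthyretin, glucose-6-phosphatase and an insulin-like growth factor binding protein) were called in the same 4 libraries, WT 1, WT 2, WT 4 and Homo 3. Fga and Fgb, fibrinogen chains, were called in 5 libraries each. Of the 10 target genes with none, Cyp7a1, Cyp8b1, Cyp3a11, Cps1, Otc and Tat encode enzymes of bile acid, drug, urea and tyrosine metabolism. The others were the plasma protein genes Apoh, Serpina1a, F7 and F9. The genes named here were picked after their values were seen, and no test was made.

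Beyond 10 kb, a region at 163472262 to 163472854 on chromosome 2, upstream of Hnf4a, was called in 7 libraries with folds from 5.90 to 9.09 and lay at the start of Fitm2, a lipid droplet gene. A region at 18990745 to 18991301 on chromosome 7, past the end of Foxa3, was called in the same 7 libraries and lay at the Mypop start. The 7 were the 4 WT libraries, Het 1, Het 2 and Homo 3.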
